A study of Mus musculus with 6 samples.

Results

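The RNA of 34 genes of glycolysis and of the hypoxia response was followed in mouse aortic arches, compared between recipients of Mir21–/– and of Mir21+/+ bone marrow. The genes were listed by name: 16 for glucose entry and the glycolytic enzymes, 4 for pyruvate and lactate handling, 4 for the subunits of hypoxia-inducible factor (HIF) and their prolyl hydroxylases, and 10 further hypoxia-inducible genes. Every non-control probe whose gene name in the scanner files equalled a listed name was taken, which gave 57 of the 55681 probes on the array, or 34 of the 31982 distinct names in its gene-name column. Of the 57 probes, 56 were among the 38341 probes tested, and all 34 genes had at least 1 tested probe. The remaining probe was a second probe of Pfkfb4 that was not well above background on any of the 6 arrays.

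Each array carried the aortic arch RNA of 1 female mouse, with the strain given as C57BL/6, and each group held 3 mice. All recipients were Mir21+/+ and had been given whole-body X-rays as 2 fractions of 5 Gy inside 4 h. They were then given marrow intravenously the following day, Mir21+/+ for the wild-type (WT) marrow group and Mir21–/– for the knockout (KO) marrow group. A high-fat diet began 3 weeks after irradiation and was kept up for 12 weeks in both groups. The donor genotype therefore applies to marrow-derived cells, while the cells of the recipients' own vessel wall carried Mir21+/+ in both groups. The ages of the animals, the hour at which arches were collected and the extent of donor engraftment were not given in the sources used here. There were 0 probes named for Mir21, so the knockout was not checked on these arrays.

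Glycolysis splits glucose into pyruvate, which is either oxidised in mitochondria or reduced to lactate. When oxygen is short, prolyl hydroxylases (the Egln enzymes) no longer mark the HIF alpha subunits Hif1a and Epas1 for destruction, and HIF then raises transcription of glucose transporters, most glycolytic enzymes, angiogenic factors and mitophagy receptors. In plaques and the arterial wall this programme is known from macrophages and smooth muscle cells, and the same glycolytic genes are abundant in muscle and in brown and white fat.

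Levels are given as log2 signal above or below the 75th percentile of the same array, and a difference is KO minus WT marrow with its standard error (SE). A gene with several tested probes is given by the probe with the highest mean over the 6 arrays. Levels of different genes come from different probes and are not set against each other. The 75th percentile of the signal ran from 238.9 to 407.2, and 66.4% to 74.4% of spots were well above background, with the lowest value of both on KO replicate 3. Markers of the arch wall were present, with 10 of 10 contractile smooth muscle markers (among them Acta2 and Myh11) and 10 of 10 endothelial markers (among them Pecam1 and Cdh5) well above background on all 6 arrays. The arches also held all 12 white and all 12 brown adipocyte markers on all 6 arrays. In the means of these lists KO replicates 2 and 3 stood apart from the rest, though not for every marker. In each list 11 markers had a difference below 0 and 1 above 0. The white adipocyte list deviated from its 6-array mean by 0.94, 0.19 and 1.16 in WT replicates 1 to 3 and by 1.17, -1.12 and -2.35 in KO replicates 1 to 3. The corresponding values of the brown adipocyte list were 1.05, 0.26 and 1.18, and 1.24, -1.32 and -2.41. Results that rest on KO replicates 2 and 3 are also given without them. In whole tissue, fewer cells of a type and less RNA per cell cannot be told apart.

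No gene of the 34 passed the test adjusted over all tested probes (limma, 0 of 34), where 1 of 38341 probes passed, or 0.00261%. The smallest adjusted p among them was 0.488, for Hk2. At an unadjusted p below 0.05, 4 of the 34 (11.8%) had lower and 0 had higher values with KO marrow, beside 4.27% and 4.44% of all tested probes in the same directions. The 4 were Hk2, the hexokinase of insulin-sensitive tissues, Pdk1, a kinase that inhibits pyruvate dehydrogenase, Bnip3, a mitophagy receptor induced by HIF, and Pfkfb3, the enzyme that makes the activator of phosphofructokinase. The point estimate was below 0 for 24 genes and above 0 for 10, and the median difference was -0.25, beside 0.02 over all tested probes, of which 46.8% lay below 0.

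These counts depended on single arrays. Without KO replicate 1 the number at an unadjusted p below 0.05 was 10 lower and 1 higher, but the shares of all tested probes also grew, to 10.71% and 7.15%. Without KO replicate 2 it was 0 in either direction, beside 3.03% and 5.04% of all tested probes. Without WT replicate 3 only Hk2 remained (lower), beside 2.13% of all tested probes in that direction. Without WT replicate 1 there were Hk2 and Egln3 (lower), beside 2.89% of all tested probes. Without KO replicate 3 there were Hk2 and Slc2a1 (lower), beside 3.34%. When KO replicates 2 and 3 were both left out, so that KO replicate 1 stood alone, the estimate was below 0 for 14 genes and above 0 for 20, the median was 0.03, and those at an unadjusted p below 0.05 were Hif1a and Slc2a1 (lower) and Vegfa (higher). In that fit 5.02% of all tested probes were lower and 4.74% higher at the same threshold.

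**Figure D1:**
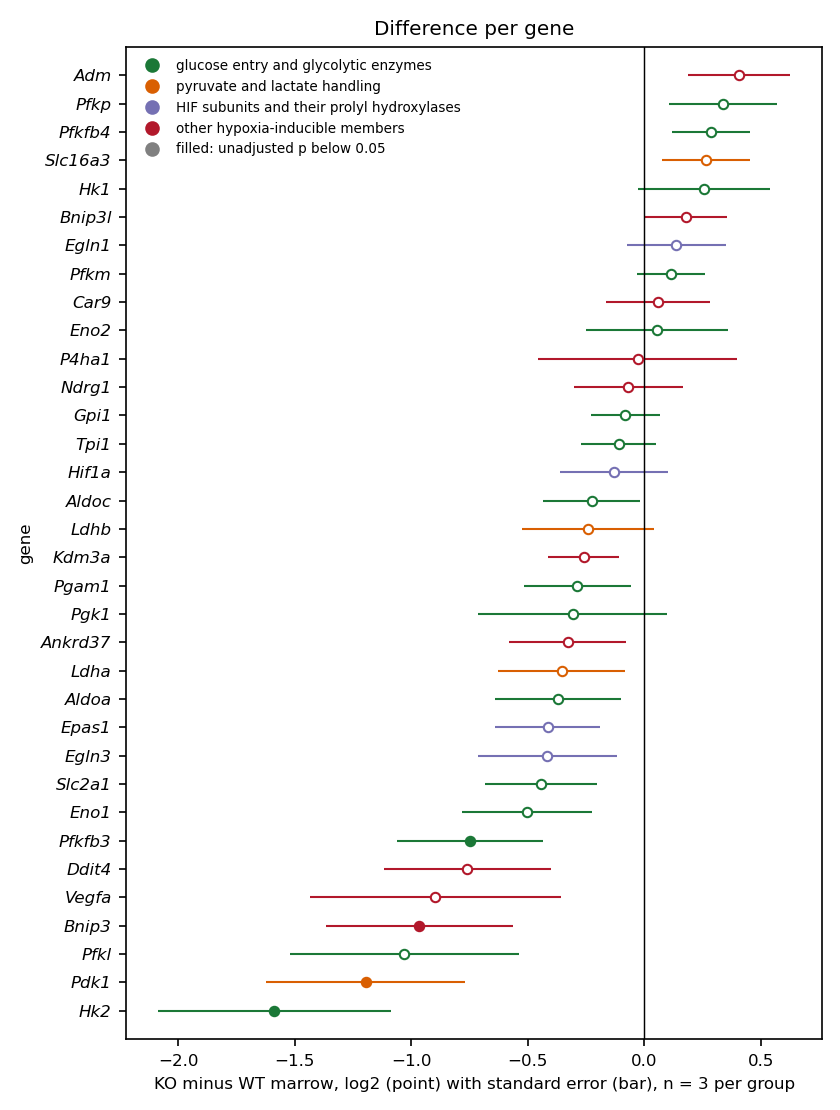
Difference between KO and WT marrow for each of the 34 genes on the log2 scale (horizontal axis), with its standard error as a bar and n = 3 arrays per group; colours mark the 4 roles and filled points have an unadjusted p below 0.05. The differences run from -1.59 for Hk2 to 0.41 for Adm, 24 of them lie below 0, and the 4 filled points are Hk2, Pdk1, Bnip3 and Pfkfb3.

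Hk2 phosphorylates glucose on its entry into the cell. Its level was 3.41, 2.54 and 3.52 with WT marrow and 2.72, 1.10 and 0.88 with KO marrow. KO replicate 1 lay inside the WT range and KO replicates 2 and 3 lay below it, so the groups overlapped. The difference was -1.59 ± 0.50 (SE), a 3.01-fold lower mean, with limma adjusted p of 0.488. It ranged from -2.16 to -1.25 when arrays were dropped one at a time and was -0.43 without KO replicates 2 and 3.

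Pdk1 switches pyruvate dehydrogenase off by phosphorylating it, which diverts pyruvate away from oxidation. Its level was -0.57, -1.16 and 0.05 with WT marrow and -0.95, -1.92 and -2.41 with KO marrow. The lowest WT value, in replicate 2, lay below that of KO replicate 1, while KO replicates 2 and 3 were the lowest of the 6. The difference was -1.20 ± 0.43 (limma adjusted p = 0.525), a 2.29-fold lower mean, and -0.39 without KO replicates 2 and 3.

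Bnip3 sits in the outer mitochondrial membrane and recruits the autophagy machinery. Its brightest probe read 5.28, 4.31 and 5.10 with WT marrow and 4.77, 3.47 and 3.56 with KO marrow. KO replicate 1 again lay inside the WT range. The difference was -0.96 ± 0.40 (limma adjusted p = 0.571), a 1.95-fold lower mean, and -0.13 without KO replicates 2 and 3. The other probes of the gene, neighbours within the same stretch of chromosome 7, gave -1.03 ± 0.38 and -1.07 ± 0.44, so the 3 probes differed by less than their errors.

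Pfkfb3 synthesises and degrades fructose-2,6-bisphosphate, and its kinase side prevails. Its level was 4.55, 4.15 and 4.13 with WT marrow and 4.25, 3.22 and 3.12 with KO marrow, where replicates 2 and 3 were the lowest of the 6 and replicate 1 lay inside the WT range. The difference was -0.75 ± 0.31 (limma adjusted p = 0.573), and -0.029 without KO replicates 2 and 3. A dimmer probe of Pfkfb3 gave -0.36 ± 0.31.

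**Figure D2:**
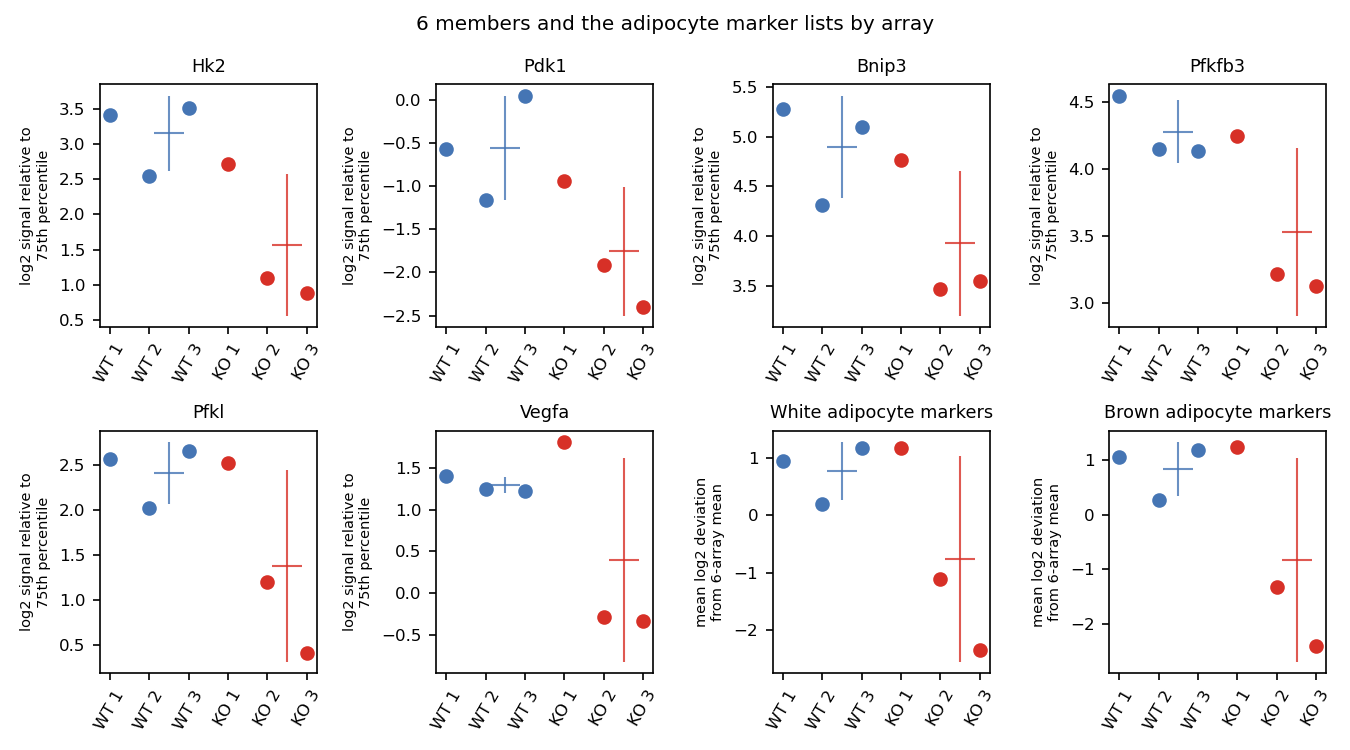
Log2 signal relative to the array's 75th percentile on each of the 6 arrays for Hk2, Pdk1, Bnip3, Pfkfb3, Pfkl and Vegfa, and in the last 2 panels the mean deviation of the 12 white and 12 brown adipocyte markers from their 6-array means; dots are arrays (WT blue, KO red), and the crosses with bars are group means ± SD, n = 3. In all 8 panels KO replicates 2 and 3 are the lowest arrays, while KO replicate 1 lies inside the WT range for Hk2, Pdk1, Bnip3, Pfkfb3 and Pfkl, just above it for the marker lists and highest of the 6 for Vegfa.

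HIF binds DNA at a short core, ACGTG or GCGTG, and the promoter windows of the 4 genes with the smallest p are shown to let these cores be seen. The table of RefSeq promoters (GRCm38.p6, 250 bases before to 50 after a transcription start, 300 bases in all) held 46 windows of 31 of the 34 genes, and Bnip3l, Epas1 and Ndrg1 were not matched. Below are the 250 bases upstream of a start on the gene's own strand, 5′ to 3′, with each core on either strand in capitals (read as its reverse complement on the other strand). CACGTG, the palindromic E-box bound by clock and MYC-family factors, contains the ACGTG core on both strands and counts as 2 overlapping cores. The windows are chr6:82774455-82774704 (minus strand) for Hk2, chr2:71872974-71873223 (plus) for Pdk1, chr7:138909507-138909756 (minus) for Bnip3 and chr2:11502091-11502340 (minus) for Pfkfb3. Of the windows of Pdk1 and of Pfkfb3, the one with more cores is shown.
Hk2: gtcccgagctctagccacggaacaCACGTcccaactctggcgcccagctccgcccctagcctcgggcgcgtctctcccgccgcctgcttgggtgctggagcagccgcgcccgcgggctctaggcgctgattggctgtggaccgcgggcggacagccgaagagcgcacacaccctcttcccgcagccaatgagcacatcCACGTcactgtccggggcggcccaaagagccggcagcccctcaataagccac
Pdk1: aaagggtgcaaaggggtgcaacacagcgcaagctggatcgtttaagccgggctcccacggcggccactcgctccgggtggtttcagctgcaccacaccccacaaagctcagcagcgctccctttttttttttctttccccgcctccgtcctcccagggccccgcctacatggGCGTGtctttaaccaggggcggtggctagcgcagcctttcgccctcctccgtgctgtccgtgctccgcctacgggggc
Bnip3: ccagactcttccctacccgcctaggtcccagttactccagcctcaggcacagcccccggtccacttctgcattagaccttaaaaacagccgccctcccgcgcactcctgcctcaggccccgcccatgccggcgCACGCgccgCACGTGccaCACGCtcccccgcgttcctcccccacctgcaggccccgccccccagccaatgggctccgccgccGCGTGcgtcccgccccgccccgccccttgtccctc
Pfkfb3: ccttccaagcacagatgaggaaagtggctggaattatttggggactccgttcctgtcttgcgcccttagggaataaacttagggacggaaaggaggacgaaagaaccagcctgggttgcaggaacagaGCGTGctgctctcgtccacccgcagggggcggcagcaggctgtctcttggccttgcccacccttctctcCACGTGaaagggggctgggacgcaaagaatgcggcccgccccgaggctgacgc

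The upstream stretch of Hk2 held 2 cores, that of Pdk1 1, that of Bnip3 5 with 1 CACGTG and that of Pfkfb3 3 with 1 CACGTG. Over the whole 300-base windows, a core was found in 36 of 46 windows (78.3%) and in 28 of 31 genes (90.3%). Among all 32851 windows in the table it was found in 43.8%, and among all 27025 genes in 46.7%. CACGTG was found in 5 windows of 5 genes, or 10.9% of windows and 16.1% of genes, beside 7.15% of all windows and 8.09% of all genes. The members' windows were also richer in G and C, with a median of 61.5% beside 52.7% over the table, and some windows of a gene overlap. The genes without a core in any window were Eno2, Gpi1 and Tpi1, so cores were present in genes with differences near 0 (Egln1, Pfkm) as well as in the 4 above. These matches describe the sequence and show no binding.

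Among the genes of glucose entry and glycolysis, 0 of 16 passed the adjusted test, 11 lay below 0 and 5 above, and the median difference was -0.26. Slc2a1, the ubiquitous glucose transporter, had levels of 3.04, 3.21 and 2.89 with WT marrow and 2.12, 2.71 and 2.98 with KO marrow. Here KO replicate 1 was the lowest of the 6 arrays and KO replicate 3 lay inside the WT range, the reverse of the order seen for Hk2. The difference was -0.44 ± 0.24 (limma adjusted p = 0.642), and -0.20 without KO replicate 1.

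Hk1, the hexokinase of most tissues, had levels of 6.96, 7.20 and 6.17 with WT marrow and 6.86, 6.95 and 7.29 with KO marrow. The difference of this brightest probe was 0.25 ± 0.28, and its sign depended on the arrays kept (-0.05 to 0.47 when arrays were dropped one at a time). The files place that probe on chromosome 5, while RefSeq places the gene on chromosome 10. The probes placed on chromosome 10 gave 0.18 ± 0.18 and 0.43 ± 0.18, the latter with all 3 KO arrays above all 3 WT arrays and an unadjusted p below 0.05 (limma adjusted p = 0.571). The 3 probe sequences, 60 bases each and shown because their placements disagree, have these mm9 positions in the files: chr5:22118404-22118463, chr10:61731856-61731915 and chr10:61732717-61732776.
Hk1 brightest probe: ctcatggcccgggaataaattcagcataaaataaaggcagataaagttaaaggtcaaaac
Hk1 second probe: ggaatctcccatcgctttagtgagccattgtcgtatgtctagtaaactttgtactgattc
Hk1 dimmest probe: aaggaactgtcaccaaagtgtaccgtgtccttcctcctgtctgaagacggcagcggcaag

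Phosphofructokinase catalyses the committed step of glycolysis and exists as liver (Pfkl), muscle (Pfkm) and platelet (Pfkp) forms. Pfkl had levels of 2.56, 2.02 and 2.65 with WT marrow and 2.52, 1.20 and 0.42 with KO marrow. KO replicate 1 lay inside the WT range and the other KO arrays lay below it. The difference of Pfkl was -1.03 ± 0.49 (limma adjusted p = 0.606), and it was 0.11 when KO replicates 2 and 3 were left out. Pfkm varied little, from 2.88 to 3.01 with WT marrow and from 3.00 to 3.11 with KO marrow, a difference of 0.12 ± 0.14. Pfkp had levels of 2.23, 2.62 and 2.36 and of 2.42, 2.63 and 3.17, a difference of 0.34 ± 0.23 (adjusted p = 0.705, limma), while its dimmer probe gave -0.16 ± 0.22. The estimates for the 3 forms thus did not share a sign, and none passed the adjusted test.

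Pfkfb4, like Pfkfb3 an enzyme of fructose-2,6-bisphosphate turnover, had levels of -0.41, -0.01 and -0.06 with WT marrow and 0.11, 0.13 and 0.14 with KO marrow. It was the 1 gene of 34 (2.94%) whose KO arrays all lay above the WT arrays, an arrangement met by 7.58% of all tested probes. Its difference was 0.29 ± 0.17 (limma adjusted p = 0.661).

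Several enzymes that follow phosphofructokinase had one order in common, in which WT replicate 2 was the lowest WT array and KO replicate 3 the lowest of the 6. Aldoa, the aldolase of muscle and most tissues, had levels of 8.29, 7.91 and 8.45 with WT marrow and 8.40, 7.63 and 7.51 with KO marrow, a difference of -0.37 ± 0.27. Pgam1, a phosphoglycerate mutase, had levels of 6.10, 5.67 and 6.19 and of 6.05, 5.66 and 5.39, a difference of -0.29 ± 0.23. Eno1, the ubiquitous enolase, had levels of 6.67, 6.38 and 6.77 and of 6.69, 5.96 and 5.65, a difference of -0.50 ± 0.28. For all of these KO replicate 1 lay inside the WT range, and without KO replicates 2 and 3 the differences were 0.18 for Aldoa, 0.06 for Pgam1 and 0.08 for Eno1. The smallest adjusted p among the 3 was 0.647 (limma, Eno1).

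The brighter probe of Pgk1, a phosphoglycerate kinase that yields ATP, followed the same order. It read 5.13, 4.28 and 5.36 with WT marrow and 5.36, 4.51 and 3.98 with KO marrow, a difference of -0.31 ± 0.41, and the other gave -0.38 ± 0.39. The files place the brighter probe at chr3:57906830-57906894 and the other at chrX:103398646-103398700 (mm9), while RefSeq has the gene on chromosome X. Both are shown because they share a run of 53 bases and so report nearly the same sequence. The single Eno1 probe is placed at chr2:80678866-80678925, while its gene is on chromosome 4. Whether these probes also read copies of the genes elsewhere was not tested.
Pgk1 brighter probe: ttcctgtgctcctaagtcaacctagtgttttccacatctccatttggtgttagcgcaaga
Pgk1 other probe: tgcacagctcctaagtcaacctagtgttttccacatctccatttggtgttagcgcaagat
Eno1 probe: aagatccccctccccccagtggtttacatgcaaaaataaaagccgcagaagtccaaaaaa

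The remaining enzymes had differences near or under their standard errors. Gpi1, glucose phosphate isomerase, ranged from 6.88 to 6.91 with WT marrow and from 6.70 to 6.93 with KO marrow, a difference of -0.08 ± 0.15, and its 3 probes share runs of 40 to 47 bases. Tpi1, triosephosphate isomerase, had a difference of -0.11 ± 0.16, with a second probe at 0.01 ± 0.17. Aldoc and Eno2, the aldolase and enolase forms typical of brain, had differences of -0.22 ± 0.21 and 0.06 ± 0.30. Eno2 levels were -0.50, 0.67 and -0.08 with WT marrow and -0.18, 0.31 and 0.13 with KO marrow, so all 3 KO arrays lay inside the WT range.

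**Figure D3:**
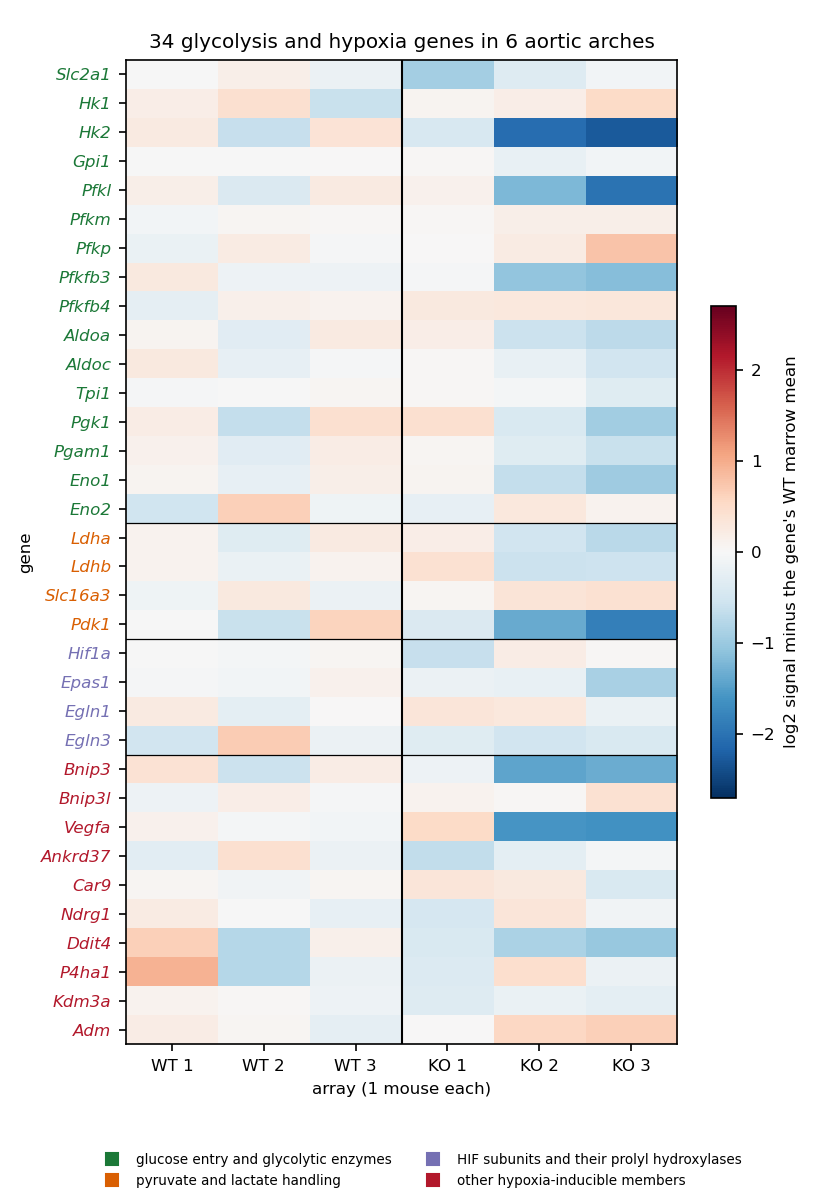
Log2 signal minus the gene's WT marrow mean (colour scale) for the 34 genes (rows, ordered and coloured by role) on the 6 arrays (columns, 1 mouse each, KO to the right of the line). The darkest blue cells are those of Hk2, Pfkl, Pdk1, Bnip3 and Vegfa in KO replicates 2 and 3, and KO replicate 1 is pale for most genes.

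Of the 4 genes of pyruvate and lactate handling, 3 lay below 0 and 1 above, and 0 passed the adjusted test. Ldha, the lactate dehydrogenase subunit that favours lactate formation, had levels of 7.25, 6.82 and 7.39 with WT marrow and 7.33, 6.64 and 6.44 with KO marrow. Ldhb, the subunit that favours pyruvate, had levels of 5.55, 5.28 and 5.55 and of 5.86, 4.88 and 4.91. In both, KO replicates 2 and 3 were the lowest of the 6 arrays, and KO replicate 1 was inside the WT range for Ldha and above it for Ldhb. The differences were -0.35 ± 0.27 and -0.24 ± 0.28 (limma adjusted p = 0.737 and 0.83), and the dimmer Ldha probes gave -0.01 ± 0.34 and 0.09 ± 0.28. Slc16a3, the lactate exporter, had levels of 1.67, 2.05 and 1.62 and of 1.82, 2.12 and 2.19, a difference of 0.27 ± 0.19, and a second probe, which shares a run of 53 bases with it, gave 0.28 ± 0.20.

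The HIF subunits and their hydroxylases also held 0 genes past the adjusted test. Hif1a had levels of 1.44, 1.41 and 1.51 with WT marrow and 0.83, 1.65 and 1.48 with KO marrow, so that KO replicate 1 was the lowest and KO replicate 2 the highest of the 6. The difference was -0.13 ± 0.23, it ran from -0.30 to 0.11 when each array was left out, and a dim second probe gave 0.17 ± 0.20. Epas1, the HIF alpha subunit prominent in endothelium, had levels of 5.69, 5.64 and 5.84 and of 5.57, 5.52 and 4.84. All 3 KO arrays of Epas1 lay below the WT arrays, by little in replicates 1 and 2, and the difference was -0.41 ± 0.23 (limma adjusted p = 0.645), or -0.18 without KO replicate 3 and -0.15 without KO replicates 2 and 3. The other Epas1 probes gave 0.00 ± 0.16 and -0.28 ± 0.29, and in neither were the groups apart. The 10 endothelial markers, by comparison, had array deviations of 0.10 to 0.22 with WT marrow and of 0.19, -0.16 and -0.52 in KO replicates 1 to 3, and their part in the Epas1 values was not tested.

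Egln1, the main oxygen-sensing hydroxylase, had a difference of 0.14 ± 0.21, from levels of -0.65, -1.14 and -0.87 with WT marrow and -0.56, -0.61 and -1.07 with KO marrow. Egln3, a hydroxylase that HIF itself induces, had levels of -1.49, -0.29 and -1.12 and of -1.29, -1.48 and -1.38. All KO arrays of Egln3 lay inside the WT range, which was stretched by WT replicate 2, and the difference was -0.42 ± 0.30.

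Of the 10 other hypoxia-inducible genes, 7 lay below 0 and 3 above, with a median of -0.16 and 0 past the adjusted test. Vegfa, the main angiogenic factor, had levels of 1.40, 1.25 and 1.23 with WT marrow and 1.81, -0.29 and -0.34 with KO marrow. KO replicate 1 was the highest of the 6 arrays and KO replicates 2 and 3 the lowest. The difference was -0.90 ± 0.54 (limma adjusted p = 0.667), a second probe gave -0.99 ± 0.63, and KO replicate 1 alone gave 0.52.

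Ddit4, an inhibitor of mTORC1 induced by stress, had levels of 3.14, 1.73 and 2.64 with WT marrow and 2.10, 1.65 and 1.49 with KO marrow, a difference of -0.76 ± 0.36 (limma adjusted p = 0.601). It was -0.44 without WT replicate 1, -1.145 without WT replicate 2 and -0.40 without KO replicates 2 and 3. WT replicate 2 lay below KO replicate 1. Kdm3a, a histone demethylase, had levels of 1.19, 1.13 and 0.96 and of 0.74, 0.92 and 0.83, and was besides Epas1 the other gene whose KO arrays all lay below the WT arrays. These 2 of 34 (5.88%) stand beside 6.14% of all tested probes, so the share was near the background. The difference of Kdm3a was -0.26 ± 0.15 (limma adjusted p = 0.662).

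Adm, the vasodilator peptide adrenomedullin, had the highest positive difference of the 34 at 0.41 ± 0.22 (limma adjusted p = 0.641), from levels of 1.14, 0.99 and 0.72 with WT marrow and 0.96, 1.51 and 1.59 with KO marrow. Bnip3l, a mitophagy receptor related to Bnip3, had a difference of 0.18 ± 0.18, and its dimmer probes gave -0.04 ± 0.17, -0.07 ± 0.17 and -0.07 ± 0.16. Bnip3l thus did not share the low values of Bnip3 in KO replicates 2 and 3, where its levels were 4.04 and 4.43 beside 3.89 to 4.20 with WT marrow.

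Ankrd37 had levels of -1.37, -0.65 and -1.24 with WT marrow and -1.76, -1.35 and -1.14 with KO marrow, a difference of -0.33 ± 0.25. P4ha1, a collagen prolyl hydroxylase subunit, spread most within WT marrow, from 1.25 to 2.95, and its difference was -0.03 ± 0.43. Car9, a membrane carbonic anhydrase often used as a hypoxia marker, had levels of -3.11, -3.27 and -3.11 and of -2.85, -2.90 and -3.57, a difference of 0.06 ± 0.22, with all 6 arrays well above background. Ndrg1 had a difference of -0.07 ± 0.23. Of these 4 genes, P4ha1, Car9 and Ndrg1 had estimates whose sign depended on the array left out, as had Pgk1, Eno2, Hk1 and Hif1a.

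**Figure D4:**
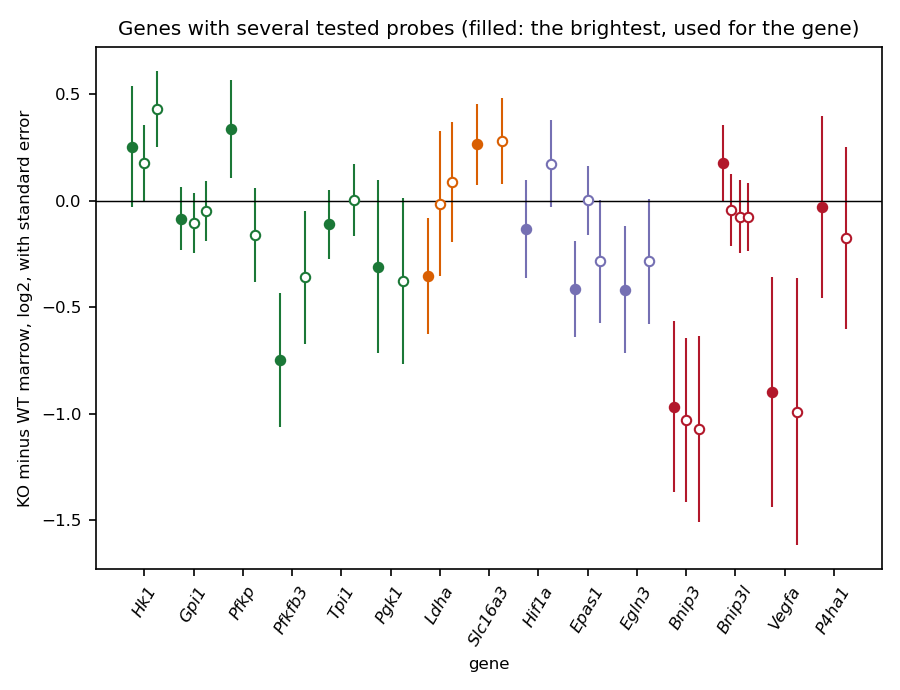
Difference between KO and WT marrow (log2, with standard error, n = 3 per group) for every tested probe of the 15 genes with more than 1 tested probe; the filled point is the brightest probe. The 3 Bnip3 probes and the 2 Vegfa probes lie close together below 0, whereas the probes of Pfkp, Tpi1, Ldha, Hif1a and Bnip3l lie on both sides of 0 and 1 of the Epas1 probes lies at 0.00.

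The order of the KO arrays was a shared feature of many of these genes. In 15 of the 34 (44.1%) KO replicates 2 and 3 were both below the other 4 arrays, beside 14.7% of all tested probes, and in 5 (14.7%) both were above the other 4, beside 13.9% of all tested probes. KO replicate 1 lay inside the WT range in 21 genes (61.8%), beside 39.3% of all tested probes. Within the 15 genes, WT replicate 2 was the lowest WT array in 11 (73.3%), as it was in 58.9% of all tested probes that were low in KO replicates 2 and 3 and in 32.3% of all tested probes. WT replicate 2 was also the WT array with the lowest adipocyte marker values and the lowest share of spots well above background. That share was 74.41%, 71.15% and 73.92% in WT replicates 1 to 3. In KO replicates 1 to 3 it was 74.25%, 70.28% and 66.38%. The part of these shares of spots in the array order was not tested. The array order was already known when the genes were counted in this way, so the counts are a description.

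The 15 genes were Hk2, Gpi1, Pfkl, Pfkfb3, Aldoa, Tpi1, Pgam1, Eno1, Ldha, Ldhb, Pdk1, Epas1, Bnip3, Vegfa and Ddit4. By role they were 8 of the 16 enzymes and transporters of glucose entry and glycolysis, 3 of the 4 genes of pyruvate and lactate, 1 of the 4 HIF subunits and hydroxylases and 3 of the 10 other hypoxia-inducible genes. The array order was read from each gene's brightest probe. The dimmer probes of Ldha, Epas1 and Tpi1 and the dimmest Gpi1 probe lacked it, while the dimmer probes of Bnip3, Pfkfb3 and Vegfa had it. The mean deviation of the glycolytic enzymes from their 6-array means was 0.18, 0.07 and 0.19 in WT replicates 1 to 3 and 0.13, -0.23 and -0.34 in KO replicates 1 to 3. That of the other hypoxia-inducible genes was 0.35, -0.03 and 0.07, and -0.01, -0.13 and -0.26. Among white and brown adipocyte markers, 10 of 12 and 11 of 12 had KO replicates 2 and 3 below the other 4 arrays, and the medians of their differences were -1.69 and -1.92. The part of the adipocyte marker values in the differences of the 34 genes was not tested.

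**Figure D5:**
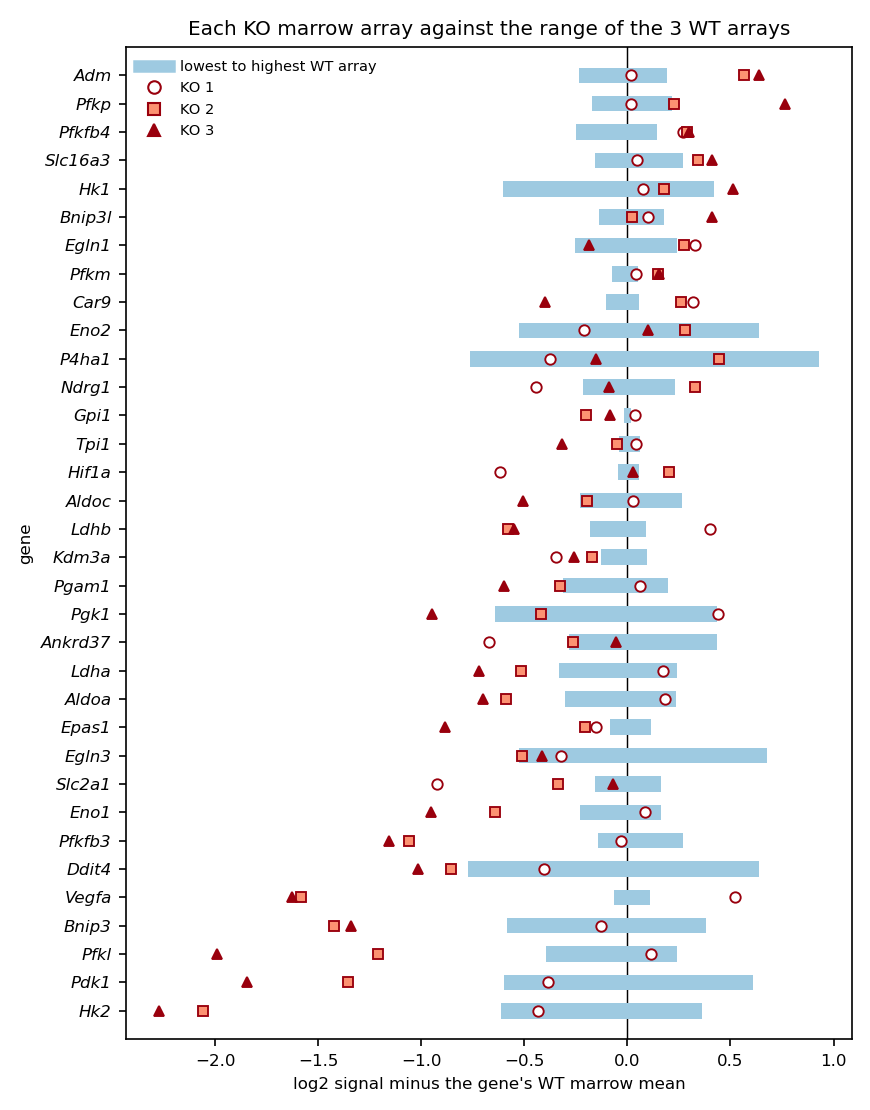
Each KO array's log2 signal minus the gene's WT marrow mean (horizontal axis) for the 34 genes, sorted by their difference; the blue bar runs from the lowest to the highest WT array. KO replicate 1 (open circles) lies inside the bar in 21 of 34 genes, while KO replicates 2 and 3 lie together to the left of the bar at the lower end, as for Hk2, Pdk1, Pfkl, Bnip3 and Vegfa.

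Immature thymocyte and endothelial markers shared the array order of the adipocyte markers in that KO replicates 2 and 3 were lowest. The thymocyte list, of which 4 of 8 markers were well above background on all 6 arrays, deviated by 0.25, 0.30 and 0.29 in WT replicates 1 to 3 and by 0.36, -0.91 and -0.29 in KO replicates 1 to 3. KO replicates 2 and 3 were below the other 4 arrays in 6 of the 8 thymocyte and 3 of the 10 endothelial markers. Contractile smooth muscle markers deviated by -0.21, -0.01 and -0.28 in WT replicates 1 to 3 and by -0.20, 0.27 and 0.44 in KO replicates 1 to 3. Macrophage markers deviated by 0.29, -0.55 and -0.14 and by 0.01, 1.05 and -0.67, so that KO replicates 2 and 3 lay at opposite ends for them. Fibroblast and matrix markers deviated by -0.01, -0.42 and 0.01 and by 0.04, 0.37 and 0.01. Cardiac muscle markers ranged from -0.66 to -0.13 with WT and from -1.06 to 1.48 with KO marrow, and skeletal muscle markers from -1.48 to 2.12 and from -0.31 to 0.14. Erythroid and neutrophil markers ranged from -1.06 to 0.64 and -0.46 to 0.78 with WT marrow, and from -0.66 to 0.64 and -0.44 to 0.48 with KO marrow. The part of these lists in the differences of the 34 genes was not tested.

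A further list of 33 glycolysis and pyruvate genes outside the 34 had 30 genes tested. Of these, 0 passed the adjusted test, 23 lay below 0 and 7 above, with a median of -0.40. At an unadjusted p below 0.05, 2 of 30 were lower and 0 higher, beside 4.27% and 4.44% of all tested probes. All 3 KO arrays lay below the WT arrays in 2 of 30, beside 6.14% of all tested probes. KO replicates 2 and 3 were both below the other 4 arrays in 16 of 30, beside 14.7% of all tested probes. Pfkfb2, a heart-type relative of Pfkfb3, had levels of -2.94, -2.39 and -2.32 with WT marrow and -3.47, -3.77 and -3.36 with KO marrow, without overlap and low also in KO replicate 1. Its difference was -0.99 ± 0.22 (limma adjusted p = 0.393). The next smallest p among the lower genes belonged to Slc2a4, the insulin-responsive glucose transporter (-1.44 ± 0.56), Gpd1, which links glycolysis to glycerol synthesis (-1.63 ± 0.71), and Pfkfb1 (-1.92 ± 0.85). For Slc2a4, Gpd1 and Pfkfb1, KO replicate 1 lay inside the WT range and KO replicates 2 and 3 lay far below it. On the higher side the smallest p values were those of Slc2a3 (0.51 ± 0.33), Hk3 (0.72 ± 0.62), Pdk3 (0.28 ± 0.29) and Pgk2 (0.12 ± 0.17), all above an unadjusted p of 0.05.

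A further list of 45 hypoxia response genes had 41 tested, with 0 past the adjusted test, 27 below 0 and 14 above, and a median of -0.11. At an unadjusted p below 0.05, 3 of 41 were lower and 1 was higher, beside 4.27% and 4.44% of all tested probes. All KO arrays lay below the WT arrays in 3 of 41 and above them in 1, beside 6.14% and 7.58% of all tested probes. KO replicates 2 and 3 were both below the other 4 arrays in 5 of 41, beside 14.7% of all tested probes. Bhlhe40, a repressor shared by the hypoxia response and the circadian clock, had levels of 1.33, 1.15 and 1.19 with WT marrow and -0.30, -0.32 and -1.21 with KO marrow. The groups of Bhlhe40 did not overlap and KO replicate 1 was as low as KO replicate 2, with a difference of -1.84 ± 0.26 (limma adjusted p = 0.35). Wsb1, a ubiquitin ligase adaptor, was higher on all 3 KO arrays by 0.70 ± 0.15 (limma adjusted p = 0.393). Flt1, a VEGF receptor, had a difference of -0.65 ± 0.24 without overlap, and Pfkfb2 belongs to this list too. Ppp1r3c, a glycogen-targeting phosphatase subunit, had -0.74 ± 0.32. On the higher side Rora, a nuclear receptor of the clock, had 0.46 ± 0.26, Zfp395 had 0.56 ± 0.32 and Plod1, a collagen lysyl hydroxylase, had 0.28 ± 0.23.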

How the data were processed

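The 6 Agilent one-colour arrays were compared, 3 per marrow group. The processed signal, per the file headers, is a linear intensity that Agilent Feature Extraction 10.7.3.1 had corrected for background without scaling arrays to each other; the deposited series table holds the same intensity to within 0.5%. Per the labels' protocols, cRNA carrying Cy3 was made from 100 ng of total RNA (integrity number above 7.5).

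Processed signals were taken to log2, the 75th percentile of non-control spots was subtracted, outlier spots were dropped and spots of a probe averaged. A probe entered the fit when well above background on all 3 arrays of either group. Groups were compared with lmFit and eBayes (limma 3.58.1, R 4.3.3). The tests were two-sided, and p-values were adjusted by Benjamini-Hochberg across 38341 probes with a threshold of 0.05. The fit was also run on simulated data with independent noise for each probe. Shifts shared by many probes of an array were not simulated, so that run does not cover them. Motifs were counted with Python 3.11.15. With 3 arrays per group, an exact permutation test cannot give a p below 0.1.

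The 34 genes, the other lists and the rule for naming genes were chosen with earlier results of these data known. All 34 genes are named; of the other pathway lists, the 4 with the smallest p in each direction; of marker lists, at most the first 2 measured. One slide and 1 scan held all arrays, with WT marrow in row 1 and KO marrow in row 2, so row and group cannot be told apart. The series states 3 mice per group. Probe positions are the files' mm9 coordinates; their exon or intron was not analysed here.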

Additional observations from a re-analysis of the deposited data

How the results depend on the processing

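The number of the 34 genes past the adjusted test was 0 under each setting tried: normexp background correction, quantile normalization, median centring, a looser or stricter brightness filter, values from the deposited series table, a replicate block, a trended robust variance, array weights, the mean over a gene's probes, only probes placed on their gene's chromosome, and each array or KO replicates 2 and 3 left out. Replicate numbers were not taken as pairs in the reported fit. Deviations of same-numbered arrays correlated at 0.12, 0.05 and -0.28, and those of differently numbered arrays at -0.38 to 0.39. With 3 arrays per group these correlations cannot exclude pairing. The replicate block left 1 probe and 0 of the 34 genes past the adjusted test. Over all tested probes, 1 passed in the reported fit, 4 with normexp, 2 each when arrays were centred on their medians, when they were weighted, when the variance was trended and robust and when KO replicates 2 and 3 were left out, 0 when probes had to be well above background on all 6 arrays, and 1 to 2 when each array was left out. The median difference of the 34 genes was -0.29 to -0.11 as arrays were dropped singly and 0.032 without KO replicates 2 and 3. Genes whose KO arrays all lay below the WT arrays numbered 2, but 1 with quantile normalization, median centring or the mean over probes, 6 without KO replicates 2 and 3, and 2 to 16 when each array was left out, with 16 without KO replicate 1 and 8 without WT replicate 2. With arrays left out, fewer arrays had to be ordered, which makes the arrangement easier to meet for any probe. The 6.14% of all tested probes with this arrangement holds for all 6 arrays only. Its share with arrays left out was not counted. The counts of 6, 8 and 16 therefore have no background beside them, and no conclusion is drawn from them.

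Genes at an unadjusted p below 0.05 in the lower direction, 4 as reported, numbered 7 with normexp (2.89% of all tested probes), 2 with quantile normalization (4.07%) or no filter (3.13%), 6 with the replicate block (4.58%), 10 with array weights (10.6%) and 0 to 10 when each array was left out (3.03% without KO replicate 2, 10.71% without KO replicate 1), beside 4.27% in the reported fit. Without KO replicates 2 and 3 the sign turned for Gpi1 (0.036), Pfkl (0.11), Aldoa (0.18), Aldoc (0.029), Tpi1 (0.042), Pgk1 (0.44), Pgam1 (0.062), Eno1 (0.083), Eno2 (-0.21), Ldha (0.17), Ldhb (0.40) and Vegfa (0.52). It turned with array weights for Hif1a (0.011), Ndrg1 (0.13) and P4ha1 (0.054), and with the mean over probes for Hif1a (0.022) and Bnip3l (-0.0030); the cause was not tested. When each array was left out, 20 genes stayed below 0 and 7 above, and 7 changed sign: Car9 (-0.071 to 0.29), Eno2 (-0.21 to 0.38), Hif1a (-0.30 to 0.11), Hk1 (-0.048 to 0.47), Ndrg1 (-0.27 to 0.12), P4ha1 (-0.41 to 0.44) and Pgk1 (-0.68 to 0.011). The settings with fewer arrays assume that a lone array varies like the others. The probe-placement setting and the counts at an unadjusted p were added after seeing the data. The number of arrays limits the precision, and KO replicate 3 had the lowest signal over background.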
